A study of Rattus norvegicus with 18 samples.

Results

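The 10 transcription factors described here are Sox9, Sox2, Nfia, Nfib, Hes1, Hes5, Id1, Id3, Pax6 and Lhx2, regulators known for forming or keeping astrocyte identity. They were taken by symbol from the gene counts of 18 RNA sequencing libraries, and all 10 symbols are listed in the tables of both cell types, among 17930 symbols in all. The libraries came from primary astrocytes and primary microglia of WT (wild-type) rat brain, and each cell type was left untreated as a control, treated for 24 h with Aβ42 fibrils or treated for 24 h with Aβ40 fibrils. Each of the 6 groups has 3 libraries. Both cell types were prepared from mixed glial cultures of neonatal Sprague-Dawley cortex, the microglia as the cells that came loose on shaking and the astrocytes as the layer that stayed attached after a further shake meant to clear oligodendrocyte precursors. All cells, the controls included, were in serum-free medium from shortly before the fibrils were added. The sources used here do not say whether the 3 libraries of a group came from separate cultures or animals, so the p-values measure the spread between these libraries, which may be technical.

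SOX9, an HMG-box factor, starts the switch of neural progenitors from making neurons to making glia, and it stays on in mature astrocytes, where the nuclear factor I proteins NFIA and NFIB act with it on astrocyte genes. SOX2, PAX6 and LHX2 are factors of neural progenitors and radial glia that cortical astrocytes can keep. HES1 and HES5 are basic helix-loop-helix repressors switched on by Notch signalling, and ID1 and ID3 are helix-loop-helix proteins without a DNA-binding region, switched on by bone morphogenetic proteins (BMPs), that hold E proteins and so keep proneural factors from acting.

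The sequence just before the start of 4 members is shown because these genes stand for the patterns below. Hes1 moved in opposite directions in the cell types, Hes5 had almost no reads, and Id1 and Id3 rose in both cell types with both fibrils. The sequences are the 250 bases before the annotated start in RefSeq (build GRCr8), read 5′ to 3′ on the strand of the gene. RefSeq entries were found for 9 of the 10 members, and there was none for Sox9. In the Hes1 and Hes5 sequences, capitals mark TGGGAA, the core bound by RBPJ, the DNA-binding partner of Notch, and TTCCCA is the same core on the other strand. In the Id1 and Id3 sequences, capitals mark GGGCGG, the GC box bound by SP-family factors, written CCGCCC on the other strand.
Hes1 (chr11:84213046-84213295, minus strand): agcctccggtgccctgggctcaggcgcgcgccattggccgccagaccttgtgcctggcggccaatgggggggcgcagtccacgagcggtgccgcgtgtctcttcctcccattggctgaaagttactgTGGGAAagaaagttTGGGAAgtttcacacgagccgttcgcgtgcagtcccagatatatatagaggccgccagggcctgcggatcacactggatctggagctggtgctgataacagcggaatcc
Hes5 (chr5:170804327-170804576, plus strand): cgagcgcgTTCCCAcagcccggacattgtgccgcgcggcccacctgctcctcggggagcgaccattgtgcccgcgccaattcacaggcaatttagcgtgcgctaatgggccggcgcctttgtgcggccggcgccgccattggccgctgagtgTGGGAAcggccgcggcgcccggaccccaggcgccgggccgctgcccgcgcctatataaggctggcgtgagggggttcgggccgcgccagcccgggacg
Id1 (chr3:161671314-161671563, plus strand): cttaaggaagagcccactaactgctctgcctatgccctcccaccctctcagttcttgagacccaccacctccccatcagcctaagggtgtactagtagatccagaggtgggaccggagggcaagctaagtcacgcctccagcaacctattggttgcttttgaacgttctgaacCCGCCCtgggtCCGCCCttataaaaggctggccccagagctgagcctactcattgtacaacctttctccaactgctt
Id3 (chr5:153656041-153656290, plus strand): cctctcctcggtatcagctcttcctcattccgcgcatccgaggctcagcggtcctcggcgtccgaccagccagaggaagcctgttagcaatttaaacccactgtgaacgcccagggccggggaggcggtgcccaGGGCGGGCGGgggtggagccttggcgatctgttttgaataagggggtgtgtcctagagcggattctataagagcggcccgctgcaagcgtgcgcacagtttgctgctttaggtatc

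TGGGAA was found 2 times in the Hes1 sequence, at 123 to 118 and 109 to 104 bases before the start, both on the strand of the gene. It was found 2 times in Hes5, at 98 to 93 bases on the same strand and at 242 to 237 bases on the other. Of the other members with an entry, Pax6 alone held it, 1 time, and 22.1% of all 33469 RefSeq promoter windows held it at least once. GGGCGG was found 2 times each in Id1 and Id3, in Id3 as 2 overlapping copies, 4 times in Lhx2, 1 time each in Sox2, Nfia and Nfib, and in 30.5% of all windows. A search for GGCGCC, a core of BMP-responsive SMAD elements, found 4 copies each in Hes5 and Lhx2 and none in the Id1 and Id3 windows, against 8.69% of all windows with a copy. CACNAG, the N box bound by HES proteins, was found 4 times in Hes1 and 1 time each in Nfib, Pax6 and Lhx2, and in 37.2% of all windows. Both strands were searched. A match describes the letters alone, and reads on these sequences were not measured here.

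Counts on genes ranged from 3674043 to 19013919 per library in astrocytes and from 2271834 to 22274367 in microglia. Levels are given as scaled CPM, which are counts relative to the library's total on genes, with the total scaled for library composition within the cell type, and levels of different genes are not compared, since they are not per length. Calls are from edgeR's quasi-likelihood test and need an adjusted p below 0.05, where the adjustment runs over every gene tested. A pair of libraries stood apart from their groups. Across 10837 genes, microglia Aβ42 replicate 1, with 2613723 counts, had a mean correlation of 0.961 with the other Aβ42 libraries and 0.978 with the Aβ40 libraries. Astrocyte control replicate 2 had the lowest mean correlation with its own group, 0.947 across 11690 genes, and the highest share of reads not on genes, 34.2%, and its deposited table and that of astrocyte Aβ42 replicate 3 are named by another pattern than the other 7. The values that rest on these libraries are given below with and without them. The labelled cell types matched their defining markers. In the controls, the astrocyte genes Gfap and Slc1a3 were at 2839 and 1971 scaled CPM in astrocytes and at 36.9 and 72.2 in microglia, and the microglial genes Aif1 and Csf1r were at 20.5 and 124 in astrocytes and at 295 and 2494 in microglia. Genes of the oligodendrocyte lineage were plentiful in both, with Sox10 at 194 and 120 and Olig2 at 213 and 60.4 scaled CPM in control astrocytes and control microglia.

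Hes5 was not detectable in astrocytes at this depth. It had 0 counts in all 9 astrocyte libraries, where 3 counts, the limit that a count of 0 allows, correspond to 0.158 to 0.817 CPM of the plain library total. In microglia it had 2 counts in Aβ42 replicate 2, 1 count in Aβ42 replicate 3 and 0 in the other 7 libraries, where 3 counts correspond to 0.364 to 1.32 CPM. These limits cover counting error only. No fold is given for Hes5, and the other 9 members passed the filter on low counts in each cell type and in the joint fit of all 18 libraries.

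The control cultures were compared first, to see how far the members marked the astrocytes. Cell type cannot be told apart here from the way the cells were prepared or from the sequencing run. In the joint fit, 7 of 9 members were higher in control astrocytes than in control microglia, none was lower, and 68.8% of all 11581 tested genes were called, with 34.5% of the tested genes as higher. The median log2 difference was 2.45 over the members and 0.00363 over all tested genes. The plot of the cell types shows Lhx2, Sox9 and Hes1 farthest from 0. Values on the scale common to the 18 libraries are used for this comparison and for the order of the 6 groups that follows it.

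Lhx2, a LIM-homeodomain factor, was 65.3-fold higher in astrocytes, at 193 ± 48.8 against 2.87 ± 0.600 scaled CPM (SD, n = 3), a log2 difference of 6.03 ± 0.25 (SE) with an adjusted p of 9.42e-14. Sox9 was 28.2-fold higher, at 311 ± 80.5 against 11.1 ± 3.31 (log2 difference 4.82 ± 0.22, adjusted p 3.62e-13). Hes1 was 8.25-fold higher, at 16.0 ± 4.75 against 1.87 ± 0.657 (3.05 ± 0.27, adjusted p 5.12e-09). The libraries of the cell types did not overlap for any of these genes, or for Sox2, Pax6 and Nfia, 6 of 9 members against 67.1% of all tested genes. Sox2 was 6.10-fold higher, Pax6 5.45-fold and Nfia 3.41-fold, with adjusted p-values of 3.96e-11, 7.24e-10 and 1.26e-07. Id3 was 2.33-fold higher (1.22 ± 0.34, adjusted p 0.0041) although its libraries overlapped, and without astrocyte control replicate 2 the log2 difference was 1.56. Id1 did not pass the test, at 39.2 ± 12.1 in astrocytes and 32.9 ± 2.55 in microglia, a log2 difference of 0.26 with a 95% interval of −0.15 to 0.67. Without astrocyte control replicate 2, Id1 passed, with a log2 difference of 0.47 and an adjusted p of 0.0144, within a range of 0.0144 to 0.528 over its alternatives, and with library totals as the scaling it passed too, at 0.53 (0.0183). Nfib did not pass either, at 28.9 ± 10.5 and 30.8 ± 3.01 (−0.11, interval −0.63 to 0.41), and its sign turned with library totals as the scaling, which moved the median of all genes by 0.28.

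Ordered by level over the 6 groups, Sox9, Sox2, Nfia, Pax6, Lhx2 and Hes1 were higher in each astrocyte group than in each microglial group. The gap was narrowest for Hes1, with 9.43 ± 0.498 in Aβ40 astrocytes, the lowest astrocyte group (8.88 to 9.85), beside 8.11 ± 0.680 in Aβ42 microglia, the highest microglial group (7.42 to 8.78). Id1 ran in the order of treatment and not of cell type, from 110.8 ± 22.1 in Aβ42 microglia, 105 ± 15.8 in Aβ40 microglia, 90.7 ± 8.49 in Aβ40 astrocytes and 81.2 ± 4.94 in Aβ42 astrocytes down to 39.2 and 32.9 in the controls. Neighbours among the treated groups, and the controls, lay within the larger of their SDs of each other except Aβ40 astrocytes and Aβ42 astrocytes, whose difference was not called in the fit of the astrocytes.

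**Figure D1:**
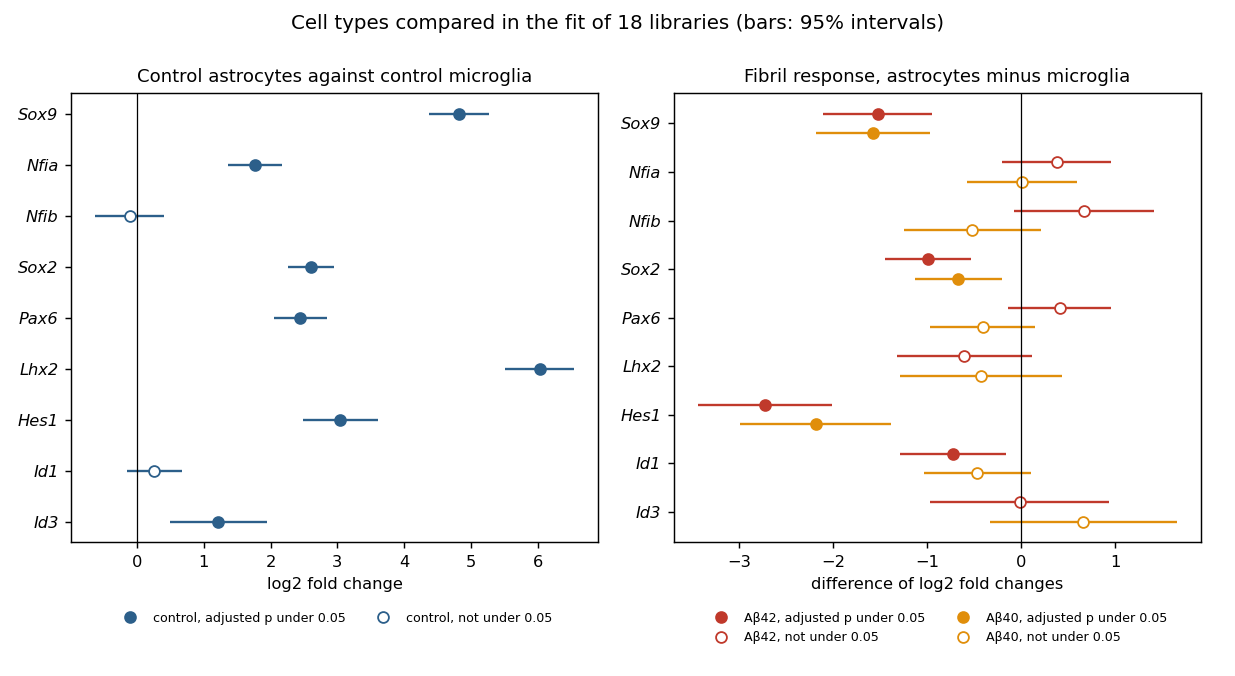
Left, log2 fold change of 9 members between control astrocytes and control microglia, and right, the difference between the cell types in the log2 response to each fibril, with 95% intervals as bars and filled points for an adjusted p under 0.05 (edgeR, 18 libraries). Lhx2 at 6.03 lies farthest right on the left, and Hes1 at −2.72 with Aβ42 and −2.18 with Aβ40 lies farthest left on the right.

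In astrocytes, fibrils were followed by lower Sox9, Nfia and Hes1 and by higher Id1 and Id3. Of the 9 members, 2 rose and 4 fell with Aβ42, beside 37% of all 11690 tested genes called, 16.5% as higher and 20.4% as lower. With Aβ40, 2 rose and 3 fell, beside 33.3% of all genes, 14.9% as higher and 18.4% as lower. The same 6 and 5 members were those whose libraries did not overlap with the controls, beside 45.7% and 43.2% of all genes. The median log2 change was −0.37 with Aβ42 and −0.17 with Aβ40 over the members, and −0.00473 and 0.00171 over all tested genes. No member changed by 5-fold or more, as 6.27% and 5.42% of all genes did with an adjusted p under 0.05.

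Sox9, the factor of the glial switch, was at 377, 384 and 236 scaled CPM in control astrocyte replicates 1 to 3, at 175, 177 and 174 with Aβ42 and at 173, 203 and 163 with Aβ40. All treated libraries lay below all controls, and the Aβ42 libraries lay close together. Sox9 fell by 0.92 ± 0.18 (SE) on the log2 scale with Aβ42 (adjusted p 0.00198) and by 0.88 ± 0.18 with Aβ40 (0.00284). Without control replicate 2 it still fell, by 0.79 and by 0.75. In bulk RNA, fewer cells of a type and less RNA of the gene per cell cannot be told apart.

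Nfia, which acts with SOX9 on astrocyte genes, was at 85.4, 78.3 and 72.5 in the controls, at 47.2, 40.6 and 41.7 with Aβ42 and at 47.1, 51.2 and 45.4 with Aβ40. The groups were well apart, since the lowest control was 72.5 and the highest treated library 51.2. Nfia fell by 0.86 ± 0.13 on the log2 scale with Aβ42 (adjusted p 0.000322) and by 0.71 ± 0.13 with Aβ40 (0.00126). Its relative Nfib was at 24.8, 43.8 and 24.3 in the controls, where replicate 2 stood alone, at 24.4, 24.5 and 22.3 with Aβ42 and at 31.1, 27.9 and 22.7 with Aβ40. Nfib was not called with either fibril (log2 changes −0.37, interval −0.87 to 0.13, and −0.17, interval −0.67 to 0.32), and without control replicate 2 its values were −0.03 and 0.16.

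Of the progenitor factors, Lhx2 alone was called in astrocytes. Sox2 was at 585, 441 and 491 in the controls, at 465, 458 and 414 with Aβ42 and at 425, 477 and 481 with Aβ40, and these groups overlapped. Its log2 changes were −0.18 (interval −0.46 to 0.10) and −0.13 (−0.41 to 0.15). Pax6 was at 49.0, 60.3 and 49.8 in the controls, at 53.6, 52.6 and 42.8 with Aβ42 and at 48.1, 59.4 and 57.2 with Aβ40, with log2 changes of −0.09 (−0.43 to 0.24) and 0.05 (−0.28 to 0.39). Lhx2 was at 263, 192 and 165 in the controls, at 154, 146 and 129 with Aβ42 and at 141, 177 and 149 with Aβ40. It fell by 0.53 ± 0.18 on the log2 scale with Aβ42 (adjusted p 0.0362) and was not called with Aβ40 (−0.41 ± 0.18, adjusted p 0.102), except without control replicate 3 (−0.55, 0.0282) and with the naming pattern of the tables as a term (−0.46, 0.0420), within a range of 0.0282 to 0.362. The Aβ42 call was lost without control replicate 1 (log2 change −0.30) and without any 1 of the Aβ42 libraries, with adjusted p-values between 0.0108 and 0.136 over its alternatives.

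Hes1, the Notch effector with the twin TGGGAA in its sequence above, was at 22.3, 12.2 and 16.8 in the controls, from 80, 51 and 239 counts. It was at 11.4, 9.40 and 11.9 with Aβ42 and at 9.98, 10.5 and 9.43 with Aβ40, all below the lowest control, which was replicate 2. Hes1 fell by 0.64 ± 0.21 on the log2 scale with Aβ42 (adjusted p 0.0307) and by 0.77 ± 0.20 with Aβ40 (0.0137). The Aβ42 call held without control replicate 2 and was lost on leaving out any other of the 6 libraries compared. The log2 change was then between −0.71 and −0.43, and the adjusted p-values ran from 0.00211 to 0.127 over its alternatives. The Aβ40 call was lost without Aβ40 replicate 3, at an adjusted p of 0.0635, the highest of a range that began at 0.000721.

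Id1 and Id3, the BMP targets, were the members that rose. Id1 was at 51.8, 27.3 and 46.7 in the controls, at 84.0, 91.7 and 80.9 with Aβ42 and at 90.7, 90.7 and 107 with Aβ40. Id3 was at 64.6, 22.98 and 69.0, at 178, 195 and 164, and at 179, 187 and 205 in the same order. Every treated library lay above every control for both genes, and control replicate 2 was the lowest control for both. Id1 rose 2.03-fold with Aβ42 (log2 1.02 ± 0.20, adjusted p 0.00226) and 2.28-fold with Aβ40 (1.19 ± 0.20, 0.000952). Id3 rose 3.40-fold (1.76 ± 0.31, 0.000953) and 3.61-fold (1.85 ± 0.31, 0.000794). Without control replicate 2 the log2 changes were 0.82 and 0.98 for Id1 and 1.42 and 1.51 for Id3, all called.

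**Figure D2:**
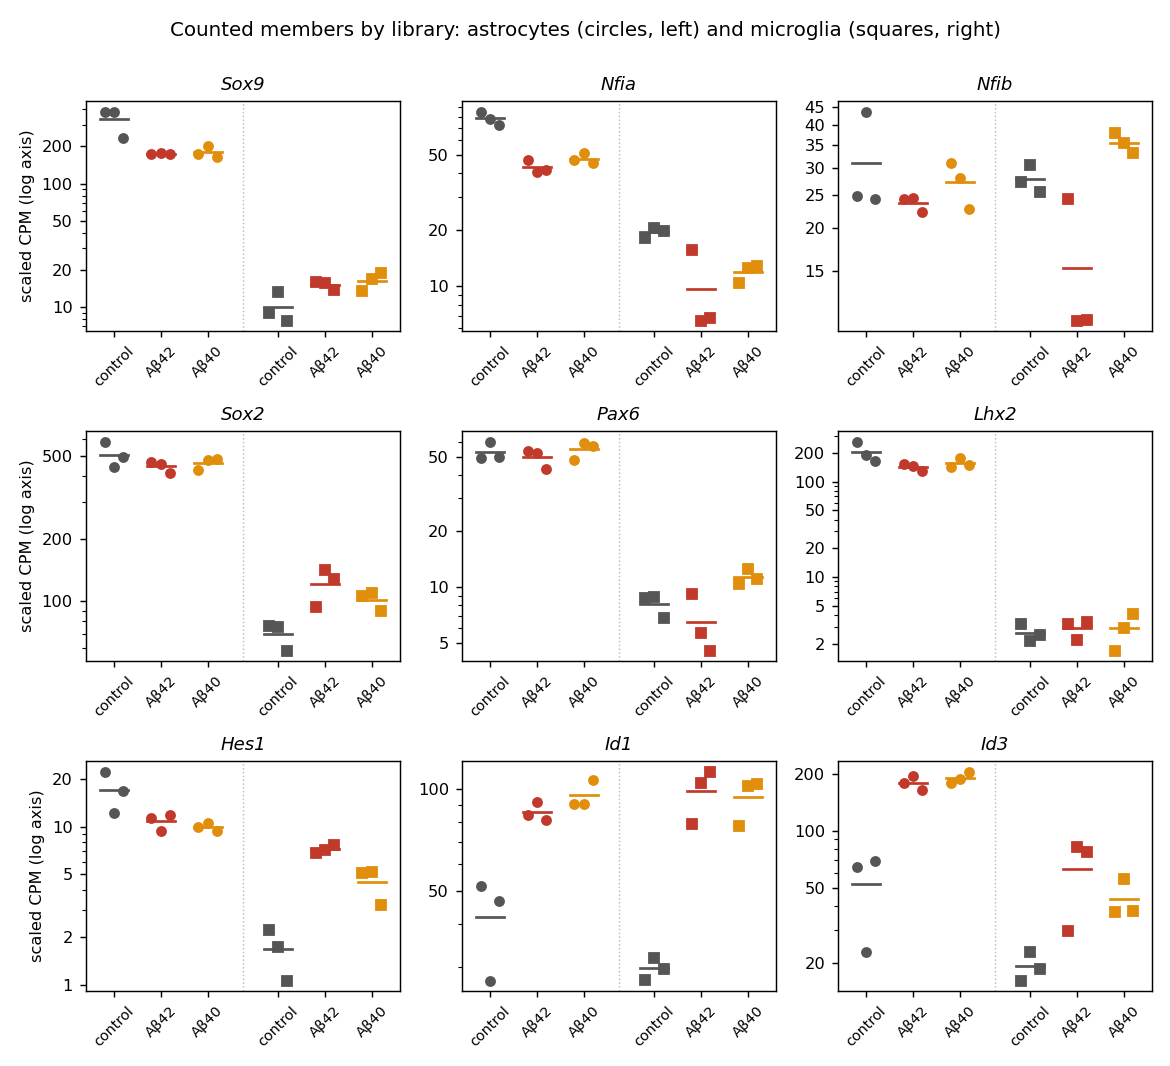
Scaled CPM (log axis) of each counted member in each library, with 1 point per library and the group mean as a line, astrocytes as circles and microglia as squares, each scaled within its cell type. In astrocytes the treated points of Sox9 and Nfia lie below the controls and those of Id1 and Id3 above, while in microglia Hes1 runs from 1.07 to 2.24 in the controls and from 3.22 to 7.70 in the treated libraries.

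Between the fibrils, no member differed in astrocytes. Of the 9 members, 0 were called between Aβ42 and Aβ40, beside 0.0855% of all tested genes, and 0 had an unadjusted p under 0.05 (6.3% of all genes) or a call by DESeq2. The log2 differences ran from −0.20 for Nfib to 0.13 for Hes1. The 95% intervals still allowed −0.73 to 0.56 for Id3 and −0.43 to 0.35 for Sox9, and the narrowest, that of Sox2, −0.33 to 0.23. Both fibril comparisons use the same 3 control libraries.

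In microglia, Sox9, Sox2, Hes1, Id1 and Id3 rose with both fibrils, and Nfia and Nfib fell with Aβ42. With Aβ42, 5 of 9 members rose and 2 fell, beside 53.7% of all 10837 tested genes called, 27.1% as higher and 26.6% as lower. With Aβ40, 5 rose and none fell, beside 41% of all genes, 19.6% as higher and 21.4% as lower. The libraries did not overlap with the controls for 7 members with Aβ42, beside 54% of all genes, and for 8 with Aβ40, beside 59.5%. The median log2 change of the members was 0.61 and 0.55, and that of all tested genes 0.00964 and 0.00536. No member changed by 5-fold or more, while 6.26% and 5.83% of all genes did so with an adjusted p under 0.05.

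Hes1 was at 2.24, 1.74 and 1.07 scaled CPM in control microglia, from 19, 9 and 7 counts. It was at 6.80, 7.15 and 7.70 with Aβ42, from 17, 165 and 135 counts, and at 5.07, 5.14 and 3.22 with Aβ40, from 21, 23 and 7 counts. The treated libraries were above all controls, and the Aβ42 libraries were above the Aβ40 libraries. Hes1 rose 4.23-fold with Aβ42 (log2 2.08 ± 0.25, adjusted p 2.61e-05) and 2.71-fold with Aβ40 (1.44 ± 0.31, 0.0029). The Aβ42 value was the same to 2 digits, 2.09, without Aβ42 replicate 1.

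Id1 was at 27.4, 31.9 and 29.6 in the controls, at 78.8, 104 and 113 with Aβ42 and at 77.9, 102 and 104 with Aβ40. It rose 3.37-fold (log2 1.75 ± 0.16, adjusted p 1.70e-06) and 3.19-fold (1.67 ± 0.16, 3.88e-06). Id3 was at 16.1, 22.8 and 18.6 in the controls, at 29.6, 81.9 and 77.4 with Aβ42, where replicate 1 was far below the others, and at 37.4, 55.5 and 37.7 with Aβ40. No treated library of either gene fell within the range of the controls. Id3 rose 3.47-fold (1.79 ± 0.30, adjusted p 0.000368) and 2.31-fold (1.21 ± 0.32, 0.00914). Without Aβ42 replicate 1, the log2 change of Id3 with Aβ42 was 2.07. Its Aβ40 call was lost without Aβ40 replicate 2, at 0.98 and an adjusted p of 0.058 within a range of 0.000772 to 0.058.

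Sox9 and Sox2 also rose in the microglial cultures, from levels far below those in astrocytes. Sox9 was at 8.95, 13.3 and 7.78 in the controls, at 16.0, 15.8 and 13.7 with Aβ42 and at 13.5, 16.8 and 18.8 with Aβ40. The gap between the groups was narrow, 13.3 against 13.5. Sox9 rose by log2 0.61 ± 0.20 with Aβ42 (adjusted p 0.0219) and 0.71 ± 0.22 with Aβ40 (0.0207). The calls were lost without control replicate 1 or 3 in both comparisons, without Aβ42 replicate 2, and without Aβ40 replicate 2 or 3, with the log2 changes then between 0.48 and 0.67. The adjusted p-values ran from 0.00402 to 0.0936 and from 0.00367 to 0.0779 over the alternatives. Sox2 was at 76.1, 74.9 and 58.0 in the controls, at 93.6, 141 and 128 with Aβ42 and at 106, 109.8 and 89.6 with Aβ40. It rose by 0.81 ± 0.16 (adjusted p 0.00105) and 0.55 ± 0.16 (0.0161), and by 0.94 with Aβ42 without its replicate 1. The Aβ40 call of Sox2 was lost without control replicate 3 (0.46), Aβ40 replicate 1 (0.53) or Aβ40 replicate 2 (0.49), with adjusted p-values from 0.00605 to 0.0713 over its alternatives.

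The nuclear factor I genes were the members that fell in microglia with Aβ42. Nfia was at 18.02, 20.5 and 19.7 in the controls, at 15.6, 6.58 and 6.79 with Aβ42 and at 10.4, 12.5 and 12.9 with Aβ40. All treated libraries were below the controls, and Aβ42 replicate 1 was again apart from the other Aβ42 libraries. Nfia fell by 1.27 ± 0.25 on the log2 scale with Aβ42 (adjusted p 0.00109), and its change of −0.71 ± 0.27 with Aβ40 missed the threshold (0.0506, range 0.0373 to 0.179). It was called with library totals or without the filter on low counts. Nfib was at 27.2, 30.5 and 25.5 in the controls, at 24.4, 10.7 and 10.8 with Aβ42 and at 37.9, 35.6 and 33.1 with Aβ40, so that its Aβ42 libraries lay below the controls and its Aβ40 libraries above them. Nfib fell by 1.07 ± 0.24 with Aβ42 (0.00295) and was not called with Aβ40 (0.37, interval −0.15 to 0.89). Without Aβ42 replicate 1, the Aβ42 changes were −1.53 for Nfia and −1.36 for Nfib.

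Pax6 was at 8.72, 8.89 and 6.86 in control microglia, at 9.20, 5.67 and 4.56 with Aβ42 and at 10.4, 12.5 and 11.03 with Aβ40, where all its libraries were above the controls. Its log2 changes were −0.52 ± 0.22 (adjusted p 0.0669) and 0.48 ± 0.24 (0.128), and without Aβ42 replicate 1 the former was called, at −0.66 (0.00433, range 0.00433 to 0.368). Lhx2, at 7 to 59 counts per library, was between 1.69 and 4.14 scaled CPM in all 9 libraries, and its groups overlapped. Its log2 changes of 0.07 and 0.04 had intervals of −0.59 to 0.73 and −0.79 to 0.86.

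**Figure D3:**
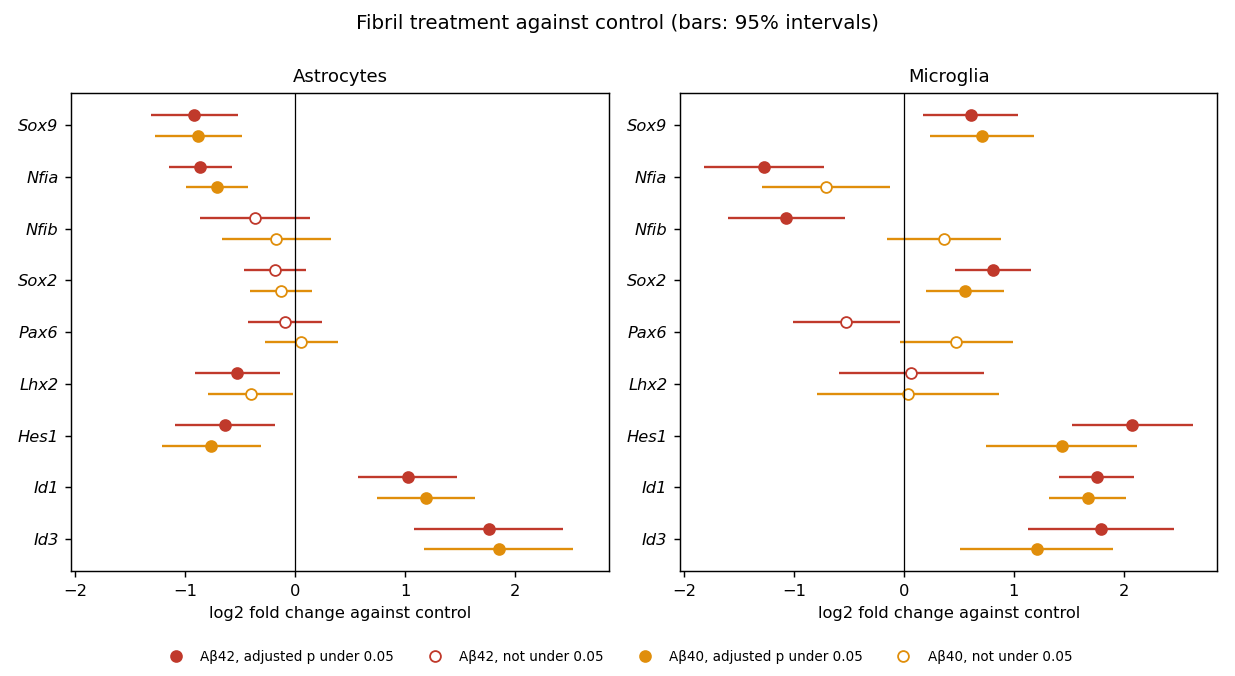
Log2 fold change of 9 members against control with Aβ42 and Aβ40 in astrocytes (left) and microglia (right), with 95% intervals as bars and filled points for an adjusted p under 0.05. Id1 and Id3 lie right of 0 in both panels, and Sox9 and Hes1 lie left of 0 in astrocytes and right of 0 in microglia.

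Between the fibrils, 2 of 9 members differed in microglia, beside 20.3% of all tested genes. Nfib was 2.71-fold lower with Aβ42 than with Aβ40 (log2 −1.44 ± 0.25, adjusted p 0.00947) and Pax6 2.00-fold lower (−1.002 ± 0.24, 0.0221). Their libraries did not overlap, nor did those of Hes1, which was higher with Aβ42 without a call (0.64 ± 0.24, adjusted p 0.0741), 3 of 9 members against 29.3% of all genes. This comparison turned on single libraries. Without Aβ42 replicate 1, 6 members were called, beside 6004 of all 11155 genes tested in that fit. They were Nfib (−1.74), Pax6 (−1.14) and Nfia (−0.82) as lower and Id3 (0.84), Hes1 (0.65) and Sox2 (0.38) as higher. Without any other 1 of the 6 libraries, 0 or 1 member was called, beside 99 to 154 of 10923 to 11138 tested genes. The Aβ42 replicates 2 and 3 had 22274367 and 17687416 counts, against 2613723 in Aβ42 replicate 1 and 2271834 to 4425805 in the Aβ40 libraries, and the part of depth was not tested. The summed neuron markers were also lower in the Aβ42 libraries, at 325 to 491 scaled CPM, than in the Aβ40 libraries, at 573 to 607. Of 7 tested neuron markers, 2 were called lower and 0 higher, and the neuronal gene Dcx alone was at 256 ± 76.8 and 425 ± 9.94. Other lists differed between the fibrils as well. Of 4 tested endothelial markers 3 were lower and 0 higher, and of 12 tested astrocyte markers 4 were lower and 1 higher, beside 20.3% of all genes called. Of 12 proliferation genes, 3 were lower and 0 higher. Other lists went the other way, with 3 of 15 microglial markers higher and 0 lower. Of 10 oligodendrocyte lineage markers 2 were higher and 0 lower, and of 5 tested fibroblast markers 1 was higher and 0 lower. The part of these lists was not tested.

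The responses of the cell types were then compared directly, as the interaction of cell type and fibril in the joint fit. Here too, cell type cannot be told apart from preparation and sequencing run. With Aβ42, 4 of 9 members responded differently, beside 37.3% of all 11581 tested genes, and with Aβ40 3 of 9, beside 32.5%. In each case the response was lower in astrocytes, a direction that 19.3% and 16% of all genes shared. For Hes1 the difference was −2.72 ± 0.34 with Aβ42 (adjusted p 4.51e-06) and −2.18 ± 0.38 with Aβ40 (0.000216), with a fall in astrocytes and a rise in microglia. Sox9 differed in the same way, by −1.53 ± 0.28 (0.000251) and −1.58 ± 0.29 (0.000338). Sox2 differed by −0.99 ± 0.22 (0.0015) and −0.67 ± 0.22 (0.0255), with a rise in microglia and no call in astrocytes. Id1, which rose in both, rose more in microglia with Aβ42, by a difference of −0.72 ± 0.27 (0.0414), while with Aβ40 the difference was −0.46 (interval −1.03 to 0.10). Nfia and Id3 were not shown to respond differently, with intervals of −0.21 to 0.96 and −0.97 to 0.93 with Aβ42 and −0.57 to 0.59 and −0.34 to 1.66 with Aβ40. Without microglia Aβ42 replicate 1 the Aβ42 differences of Nfia (0.66) and Nfib (0.99) were called, and without astrocyte control replicate 2 that of Nfib (1.05) was called, as was the Aβ40 difference of Id1 (−0.68). The called differences of Hes1, Sox9 and Sox2 kept their calls without either of these libraries. The Aβ42 difference of Id1 was called without either of them and lost without any other of the 12 libraries, at −0.77 to −0.60, with adjusted p-values of 0.00119 to 0.116 over its alternatives. The Aβ40 difference of Sox2 was lost without astrocyte control replicate 1, microglia control replicate 3 or microglia Aβ40 replicate 1 or 2, at −0.63 to −0.54 (range 0.00382 to 0.0868).

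The genes around HES1 in the Notch pathway were counted next. Of 26 tested Notch pathway genes in astrocytes, 6 rose and 4 fell with Aβ42, and 6 rose and 4 fell with Aβ40, beside 37% and 33.3% of all genes called, so these shares were near the background. Their median log2 changes were −0.02 and −0.05. The ligand gene Jag1 rose from 14.3 ± 1.61 to 73.9 ± 7.95 with Aβ42 and 56.2 ± 5.51 with Aβ40 (log2 2.39 and 1.99, adjusted p 6.92e-07 and 2.83e-06). The co-activator gene Maml3 rose by 1.48 and 1.12, and Psen2, which codes for a catalytic subunit of γ-secretase, by 1.20 and 1.20. The receptor gene Notch3 fell from 6.87 ± 3.72 to 1.94 ± 0.223 and 1.99 ± 0.374 (log2 −1.92 and −1.87), and the ligand gene Dll1 from 13.5 ± 1.68 to 5.70 ± 0.614 and 5.93 ± 0.688 (−1.24 and −1.18). In microglia, 9 of 22 tested Notch pathway genes rose and 8 fell with Aβ42, and 3 rose and 6 fell with Aβ40, beside 53.7% and 41% of all genes called, with medians of 0.03 and −0.03. Dll1 rose there, from 1.71 ± 0.150 to 6.17 ± 2.26 and 3.82 ± 1.71 (log2 1.99 and 1.19, adjusted p 0.000209 and 0.0318), and so did Rbpj, the DNA-binding partner of Notch, from 485 ± 22.3 to 1141 ± 480 and 1714 ± 254 (1.23 and 1.82).

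In the BMP pathway, which acts on Id1 and Id3, ligand and antagonist genes were found on both sides in astrocytes. Of 23 tested genes, 3 rose with each fibril, and 7 fell with Aβ42 and 6 with Aβ40, beside 37% and 33.3% of all genes called and so near the background, with median log2 changes of 0.10 and 0.14. The ligand gene Bmp2 rose from 2.10 ± 1.26 to 7.41 ± 0.850 and 7.08 ± 0.780 scaled CPM (log2 1.80 and 1.73, adjusted p 0.000663 and 0.000911). Fst, which codes for the antagonist follistatin, rose from 12.7 ± 2.89 to 59.5 ± 3.63 and 42.1 ± 0.985 (2.21 and 1.72). The antagonist gene Chrd fell (log2 −2.43 and −1.96), as did the receptor gene Bmpr1b (−2.003 and −1.65), which was at 1.63 ± 0.578 scaled CPM in the controls. Bmp7, another ligand, also fell (−1.45 and −1.36), and so did Smad9 (−1.49 and −1.17). In microglia, 6 of 17 tested genes rose with each fibril, and 4 fell with Aβ42 and 1 with Aβ40, beside 53.7% and 41% of all genes called, with medians of −0.05 and −0.01. Bmp2 rose from 3.99 ± 0.909 to 28.5 ± 8.04 and 23.2 ± 6.43 (log2 2.92 and 2.53, adjusted p 2.81e-06 and 2.45e-05), and Bmp6 from 8.81 ± 1.31 to 26.6 ± 6.40 and 21.7 ± 4.85 (1.66 and 1.35). Fst was near its detection limit in the controls, at 0.0785 scaled CPM, and at 3.98 ± 1.03 and 2.74 ± 1.59 in the treated groups, and no fold is given for it.

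**Figure D4:**
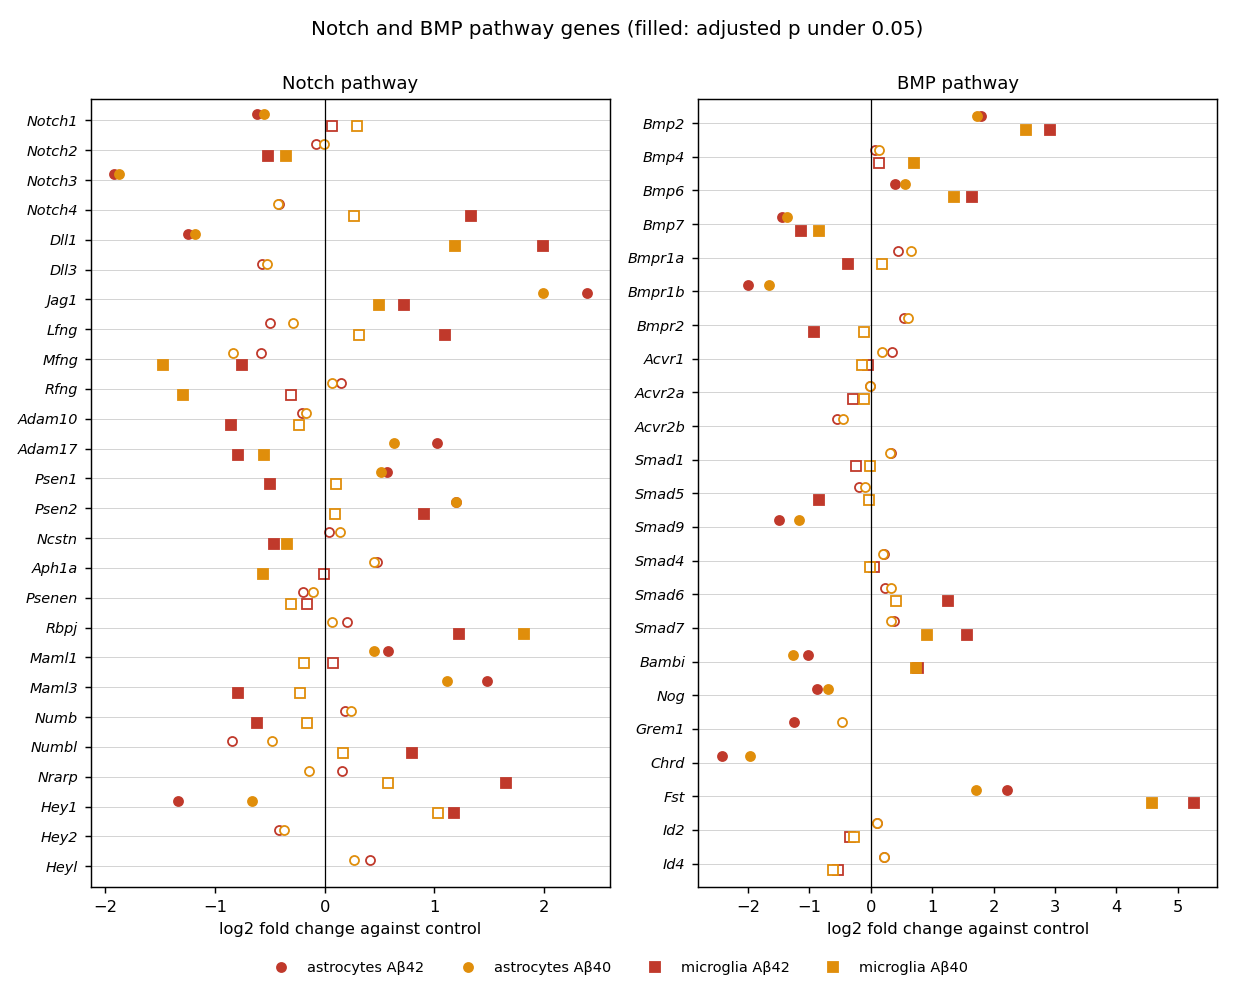
Log2 fold change against control of the tested Notch pathway genes (left) and BMP pathway genes (right), with astrocytes as circles, microglia as squares, Aβ42 in red, Aβ40 in orange and filled points for an adjusted p under 0.05. Dll1 lies left of 0 in astrocytes (−1.24 and −1.18) and right of 0 in microglia (1.99 and 1.19), while Bmp2 lies right of 0 in both. The microglial points of Fst are fitted values against controls near the detection limit and are not read as folds.

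Relatives of the members, and the proneural factors that ID proteins restrain, were counted in the same way. Of 16 tested relatives (other SOX, NFI, ID, HES and HEY genes and further cortical factors), 0 rose and 2 fell with each fibril in astrocytes, beside 37% and 33.3% of all genes called. They were Hey1, a Notch target also counted in the Notch list, and Zbtb20, a zinc-finger factor of astrocyte formation (log2 −1.33 and −1.08 with Aβ42, −0.66 and −0.91 with Aβ40). Both were named after their values were seen. Of 6 tested proneural factors and E proteins, Atoh8 rose (0.69 and 1.35), and it too was named after its values were seen. In microglia, 7 of 15 relatives rose and 3 fell with Aβ42, and 4 rose and 1 fell with Aβ40, beside 53.7% and 41% of all genes called. Of 5 tested proneural factors and E proteins there, 0 rose with either fibril and 2 fell with Aβ42.

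For each member called with both fibrils in astrocytes, the gene closest to it in pattern was sought among 11681 tested genes, by the root mean square difference of centred log2 CPM over the 9 astrocyte libraries. The nearest to Sox9 was Mllt11 (difference 0.09), to Nfia Rbmx (0.08), to Hes1 Dennd6b (0.10), to Id1 Eif6 (0.11) and to Id3 Cebpb (0.16). With Aβ42 and Aβ40, the log2 changes were −0.74 and −0.80 for Mllt11, −0.87 and −0.76 for Rbmx and −0.50 and −0.66 for Dennd6b. They were 1.04 and 1.07 for Eif6 and 1.90 and 1.86 for Cebpb. That these changes lie near those of the members follows from the search itself. The 9 libraries share their controls and treatments, so a close pattern describes these libraries alone.

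Marker lists moved with the fibrils too. The counts of markers below stand beside the shares of all tested genes called. In astrocytes 16.5% were higher and 20.4% lower with Aβ42, and 14.9% and 18.4% with Aβ40. In microglia 27.1% were higher and 26.6% lower with Aβ42, and 19.6% and 21.4% with Aβ40. In astrocytes, the summed level of 15 astrocyte markers was 14344 to 17981 scaled CPM in the controls, 8971 to 9021 with Aβ42 and 9821 to 10093 with Aβ40, with 10 and 9 of 14 tested markers falling and 2 and 3 rising, beside the falls of Sox9, Nfia and Hes1. The 15 microglial markers summed to 581 to 739, 171 to 190 and 149 to 161, with 13 and 14 of them falling. The 10 oligodendrocyte lineage markers summed to 2165 to 3321, 1953 to 2137 and 2049 to 2117, with 5 falling and 0 rising with each fibril. The 10 fibroblast markers summed to 218 to 252, 191 to 240 and 238 to 280, with 3 of 9 tested falling and 1 rising with each fibril. The fibroblast gene Col1a1 was at 84.3 ± 12.3, 35.3 ± 6.82 and 52.6 ± 4.64. All 12 proliferation genes fell with each fibril, and their sum was 899 to 1096 in the controls, 184 to 196 with Aβ42 and 239 to 261 with Aβ40. Mki67 fell from 208 to 24.8 and 28.8 scaled CPM (log2 −3.07 and −2.85), and Top2a, Ccnb2 and Plk1, which also act in dividing cells, fell by more than 2-fold with each fibril. In microglia, the astrocyte markers summed to 1600 to 1768 in the controls, 933 to 1045 with Aβ42 and 1066 to 1168 with Aβ40, and the microglial markers to 10811 to 12608, 3350 to 4575 and 3984 to 4620. Of 12 tested astrocyte markers, 2 rose and 5 fell with Aβ42, and 2 rose and 4 fell with Aβ40. Of 15 microglial markers, 1 rose and 12 fell with Aβ42, and 1 rose and 14 fell with Aβ40. There the oligodendrocyte lineage markers summed to 2575 to 2854, 3024 to 3931 and 3006 to 3677, with 6 and 5 of 10 rising and 1 falling. In these microglial libraries Pdgfra was at 119 ± 8.78, 66.1 ± 5.74 and 66.8 ± 4.68 and Mbp at 881 ± 8.39, 913 ± 123 and 938 ± 113. Olig2 was at 60.4 ± 14.5, 134 ± 21.4 and 104 ± 11.01 and Sox10 at 120 ± 16.2, 219 ± 38.0 and 191 ± 16.4, beside the rises of Sox2 and Sox9 in the same libraries, while Gfap was at 36.9 ± 6.03, 34.3 ± 8.53 and 27.1 ± 2.47 and Slc1a3 at 72.2 ± 4.89, 19.7 ± 2.05 and 19.3 ± 1.56. The 10 fibroblast markers summed to 60.1 to 75.3, 138 to 166 and 121 to 130. Of 5 tested fibroblast markers, 3 rose and 1 fell with Aβ42, and 2 rose and 2 fell with Aβ40. Col1a1 was at 44.9 ± 4.69, 63.5 ± 20.8 and 47.0 ± 4.45. The 12 proliferation genes, of which 12 and 11 fell, summed to 367 to 459, 136 to 165 and 203 to 217. Of these genes, Mki67 changed by log2 −2.32 and −1.17, Aurkb by −1.38 and −1.34 and Top2a by −1.64 and −1.03. The part of the cells that these lists mark in the changes of the members was not tested. The 7 endothelial markers, of which Cldn5 and Emcn were at 0 in all control libraries, summed to 186 to 190 in control microglia, 42.1 to 64.4 with Aβ42 and 89.9 to 114 with Aβ40, with 3 and 2 of 4 tested falling and 0 and 1 rising, and to 6.84 to 11.5 in the astrocyte libraries. The 10 neuron markers summed to 320 to 405 in control microglia, 325 to 491 with Aβ42 and 573 to 607 with Aβ40, with 3 and 5 of 7 tested rising, and to 80.9 to 135 in the astrocyte libraries, with 1 rising with each fibril and 4 and 5 of 8 tested falling. The part of the endothelial and neuronal markers was not tested either.

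**Figure D5:**
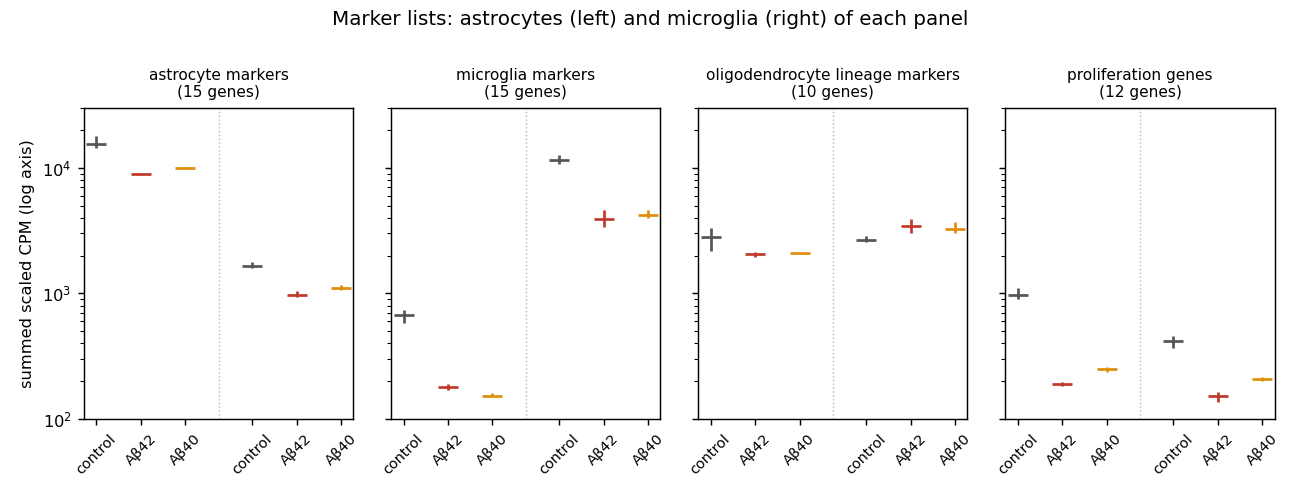
Summed scaled CPM (log axis) of 4 marker lists by group, with the mean as a dash and the range over 3 libraries as a line, astrocytes on the left and microglia on the right of each panel. The oligodendrocyte lineage sum lies between 1953 and 3931 in all 18 libraries, and the proliferation sum is at most 261 in every treated library.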

How the data were processed

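The data are 18 libraries of rat glial RNA, 3 for each of 6 groups, after 24 h with or without fibrils. The authors deposited whole-number counts of reads per gene symbol for each library, not normalized. The study's methods describe a stranded poly(A) library kit, and the submitters' processing notes name STAR, Salmon, DESeq2 and the genome build rn5. The program that counted the reads and its strand setting are not given in the sources used here, so reads of overlapping genes may not be told apart. The rows of reads on no gene or on several, 21.7% to 34.2% of a library, were left out of library sizes and tests.

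Counts were scaled by TMM, filtered with filterByExpr (11690 genes kept in astrocytes, 10837 in microglia, 11581 in the joint fit) and tested with glmQLFit and glmQLFTest of edgeR 4.0.16 in R 4.3.3, and the p-values were adjusted by Benjamini-Hochberg over every gene in the fit. The 9 libraries of a cell type were fitted together, and all 18 for the cell types and interactions. Scaled CPM are given within a cell type, or over 18 libraries where stated. The alternatives were RLE size factors or library totals in place of TMM, no filter, DESeq2 1.42.0, a block for the replicate number and the omission of each library in turn. A term for the naming pattern of the tables, and leaving out the 2 tables of the other pattern, were chosen after seeing the data. The procedure was tested on simulated data. No pair of replicates agreed within sampling noise.

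The members and gene lists were chosen with earlier results of these data known. All members are named. Of the pathway and proliferation lists, genes are named that changed by 2-fold or more with both fibrils in the same direction, at most 4 each way, and others are said to be named after their values were seen. The result of 1 proneural gene is not reported here. Promoter sequences and motif matches come from RefSeq windows of build GRCr8 and are not joined to rn5 coordinates.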

Additional observations from a re-analysis of the deposited data

Results flagged for a closer look

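The response to fibrils differed between the cell types for 4 members with Aβ42 and 3 with Aβ40, by the test of the interaction in edgeR's fit of all 18 libraries, given here as the log2 response in astrocytes minus that in microglia. With Aβ42 the differences were −2.72 for Hes1 (adjusted p 4.51e-06), −1.53 for Sox9 (0.000251), −0.99 for Sox2 (0.0015) and −0.72 for Id1 (0.0414). The Id1 difference was called in 6 of its 17 alternatives, and in 2 of the 12 that leave out a library. With Aβ40 they were −2.18 for Hes1 (0.000216), −1.58 for Sox9 (0.000338) and −0.67 for Sox2 (0.0255). For Hes1 and Sox9 every treated astrocyte library lay below its controls and every treated microglial library above its own. In the same microglial libraries Sox10 and Olig2 of the oligodendrocyte lineage were higher than in the controls. Pdgfra of the same lineage was lower there, and Mbp was at 881 in the controls and at 913 and 938 scaled CPM with the fibrils. In astrocytes Olig2 was at 213 ± 47.1, 122 ± 6.41 and 116 ± 8.10 in the controls, with Aβ42 and with Aβ40, and Sox10 at 194 ± 56.3, 165 ± 39.5 and 166 ± 30.9. Of 10 tested markers of this lineage, 5 had a lower response in astrocytes with each fibril and 0 a higher one, beside 19.3% and 16% of all genes lower. The part of these markers in the differences was not tested.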

How the results depend on the processing

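Over the alternatives, 956 of the members' values kept their direction and side of the threshold, 46 lost a call, 15 gained one and 36 changed sign, and the counts of called members stayed within 1.5 times of the reported ones in 109 cases and moved in 8. The changes of sign were of log2 values near 0, and the cause was not tested. Without the 2 tables of the other naming pattern, Pax6 was at 0.0941 with Aβ42 and Nfib at 0.149 with Aβ40 in astrocytes. With the naming pattern as a term, Sox2 was at 0.0233 and Id3 at 0.164 between the fibrils in astrocytes. With library totals, Nfib was at 0.176 between the controls, and the Aβ40 interaction of Nfia was −0.0306, against −0.0529 with RLE size factors and −0.0521 with DESeq2. Library totals moved the median of all genes between the controls by 0.278, and DESeq2 moved it by −0.117 and −0.155 in the Aβ42 and Aβ40 interactions. Leaving out each library in turn gave −0.14 to 0.0156 for Pax6 with Aβ42 and −0.34 to 0.16 for Nfib with Aβ40 in astrocytes, and −0.0993 to 0.0557 for Sox9 between the fibrils there. In microglia it gave −0.15 to 0.33 and −0.19 to 0.34 for Lhx2 with Aβ42 and Aβ40, and −0.0501 to 0.204 for Id1 and −0.27 to 0.29 for Lhx2 between the fibrils. It gave −0.43 to 0.0734 for Nfib between the controls, −0.38 to 0.25 for Id3 in the Aβ42 interaction and −0.0798 to 0.0747 for Nfia in the Aβ40 interaction. With a library left out, the members called ranged from 2 to 5 in microglia with Aβ40 and from 0 to 6 between the fibrils in microglia. The calls over all genes in these fits ranged from 3608 to 4127 and from 99 to 6004. In microglia with Aβ40 the members called were 6 with library totals or no filter.

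The replicate numbers were not taken to pair the libraries. The correlation of same-numbered libraries' deviations from their group means ran from −0.526 to 0.358 in astrocytes and from −0.194 to 0.217 in microglia, with 2 and 1 of 9 pairs over 0.1. With the replicate number as a block, Lhx2 was at −0.000841 between the fibrils in microglia and Id3 at 0.177 in the Aβ42 interaction. The block left 4 of 6 members called with Aβ42 in astrocytes, where Hes1 (adjusted p 0.0529) and Lhx2 (0.0525) were lost, and 3 of 4 in the Aβ42 interaction, where Id1 was lost (0.0623). Over all genes, the calls between the fibrils in microglia were 2198, and 752 with the block, 6004 without Aβ42 replicate 1 and 99 to 154 without any other 1 of the 6 libraries compared. In astrocytes the 10 calls between the fibrils ranged from 0 to 133 over the alternatives. Where a library was left out, its group's remaining libraries shared the spread of the whole fit. Libraries of 2271834 to 4425805 counts limit genes such as Hes1 and Lhx2 in microglia, with 7 to 27 counts in some libraries.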
